A study of Mus musculus with 16 samples.

Results

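The genes described here encode the nuclear subunits of the oxidative phosphorylation system, measured as mRNA in mouse liver. They were chosen by symbol: genes beginning Ndufa, Ndufb, Ndufc, Ndufs or Ndufv and a digit (complex I), Sdha to Sdhd (complex II), Uqcr (complex III), Cox4 to Cox8 (complex IV) and Atp5 (complex V), without pseudogenes. The choice gave 84 of the 24411 genes in the count tables, and 77 of these 84 were among the 12901 genes with enough counts to be tested. Complex I had 37 genes (36 tested), complex II had 4 (all tested), complex III had 8 (all tested), complex IV had 18 (12 tested) and complex V had 17 (all tested). The mitochondrially encoded subunits were not analysed here.

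Liver polyadenylated RNA was sequenced from 4 groups of mice with 4 libraries each. The EtOH+MBV group received an ethanol diet on the NIAAA schedule of chronic feeding with binges and was treated with matrix-bound nanovesicles (MBV), small vesicles that are embedded in the extracellular matrix. The EtOH group received the same ethanol diet and vehicle, the PF+MBV group was pair-fed and treated with MBV, and the PF group was pair-fed and received vehicle. The labels used here name no strain, sex, age, MBV dose or MBV source, and they do not say whether libraries of a group came from separate mice, so p-values measure the spread between these libraries only.

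Libraries held 15271344 to 20493181 gene counts, and the 84 genes took 0.853% to 1.18% of them. The 9 of 10 hepatocyte marker genes found in the tables summed to between 93700 and 156000 CPM, that is counts scaled to a fixed library size, as a liver label implies. Levels are given as CPM after scaling by the trimmed mean of M-values (TMM), and groups were compared with the quasi-likelihood test of edgeR. Its p-values were adjusted by the Benjamini-Hochberg method over all 12901 genes, and a gene was called at an adjusted p under 0.05. In whole liver, fewer cells of a type and less RNA per cell cannot be told apart.

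Oxidative phosphorylation couples the oxidation of NADH and succinate to ATP synthesis at the inner mitochondrial membrane. Complex I takes electrons from NADH and complex II takes them from succinate; ubiquinone carries them to complex III, cytochrome c carries them to complex IV, and complex IV passes them to oxygen. Complexes I, III and IV pump protons, and complex V, the ATP synthase, uses the gradient to make ATP. Hepatocytes are rich in mitochondria, and ethanol oxidation in liver delivers NADH to this chain. Transcription factors that are known to act on promoters of these genes include NRF1, the ETS factor GABP, YY1, the orphan receptor ESRRA and CREB.

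Promoter windows from RefSeq (build GRCm38.p6, 250 bases before to 50 bases after the start) were found for 69 of the 84 genes and searched on both strands. The NRF1 core, a palindrome of GCGC, AT and GCGC in that order, was in 5 of the 69 windows (7.25%), against 0.977% of the windows of all 27025 genes. The ETS core CCGGAAG was in 15 (21.7%), against 9.12% of all windows, and the YY1 core AAGATGGCG in 7 (10.1%), against 1.49%. The ETS core can end where the YY1 core begins, sharing AAG. At least 1 of these 3 motifs was in 25 windows (36.2%), against 11.1% of all. The ESRRA element TCAAGGTCA was in 2 windows (2.90%), against 0.407%, the CRE TGACGTCA, to which CREB binds, in 4 (5.80%), against 1.88%, and the E-box CACGTG in 7 (10.1%), against 7.24%. These matches are descriptions of letters in a window, not of binding.

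The following 250 bases before the RefSeq start, read on the gene's own strand, are shown because these genes were lower in EtOH livers and hold the motifs. Capitals mark the CRE and then the NRF1 core in Ndufa11 (chr17:56717512-56717761, plus strand), the ETS core on the opposite strand in Cox6b1 (chr7:30626115-30626364, minus strand), the ESRRA element on the opposite strand in Atp5g3 (chr2:73911327-73911576, minus strand) and the CRE in Uqcrfs1 (chr13:30545317-30545566, minus strand). For Cox6b1 and Uqcrfs1 the GENCODE M21 gene (chr7:30616861-30626151 and chr13:30540308-30545362) starts upstream of the RefSeq start. The marked motif of each lies inside that gene.
Ndufa11: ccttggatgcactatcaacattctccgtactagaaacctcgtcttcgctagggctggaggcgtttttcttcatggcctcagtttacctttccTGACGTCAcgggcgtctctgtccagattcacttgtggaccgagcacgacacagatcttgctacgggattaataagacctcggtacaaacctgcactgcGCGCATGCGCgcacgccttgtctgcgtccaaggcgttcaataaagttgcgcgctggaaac
Cox6b1: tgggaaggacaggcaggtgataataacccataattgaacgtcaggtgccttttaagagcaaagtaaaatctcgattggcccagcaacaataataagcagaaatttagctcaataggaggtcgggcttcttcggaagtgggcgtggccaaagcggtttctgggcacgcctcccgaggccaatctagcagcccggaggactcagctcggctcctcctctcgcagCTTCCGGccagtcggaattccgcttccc
Atp5g3: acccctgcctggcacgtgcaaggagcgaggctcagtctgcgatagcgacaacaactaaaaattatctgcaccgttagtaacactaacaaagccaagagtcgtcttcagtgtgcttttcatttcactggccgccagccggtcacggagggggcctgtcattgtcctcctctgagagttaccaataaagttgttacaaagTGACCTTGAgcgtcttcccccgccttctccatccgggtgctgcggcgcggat
Uqcrfs1: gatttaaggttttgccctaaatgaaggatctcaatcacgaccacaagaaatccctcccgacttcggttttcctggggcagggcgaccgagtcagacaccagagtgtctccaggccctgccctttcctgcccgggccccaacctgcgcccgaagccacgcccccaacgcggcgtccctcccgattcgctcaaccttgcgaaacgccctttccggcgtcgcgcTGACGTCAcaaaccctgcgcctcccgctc

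Ethanol feeding was the first comparison, EtOH against PF. Of the 77 tested genes, 31 were lower in EtOH livers, 0 were higher and 46 did not pass the test. Across all genes, 39.8% passed in either direction, so the 40.3% of these genes that passed is near the background. All 31 calls were in the lower direction, where 19.5% of all genes were lower and 20.4% were higher. The median log2 fold change was -0.28 for the 77 genes, with 70 below zero and 7 above, against a median of 0.01 over all genes. In 19 of the 77 genes every EtOH library lay below every PF library, and in 0 above, where 16.3% of all genes were lower in this sense and 15.9% higher. Called folds were modest, 1.20-fold to 1.52-fold lower apart from Atp5sl.

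**Figure D1:**
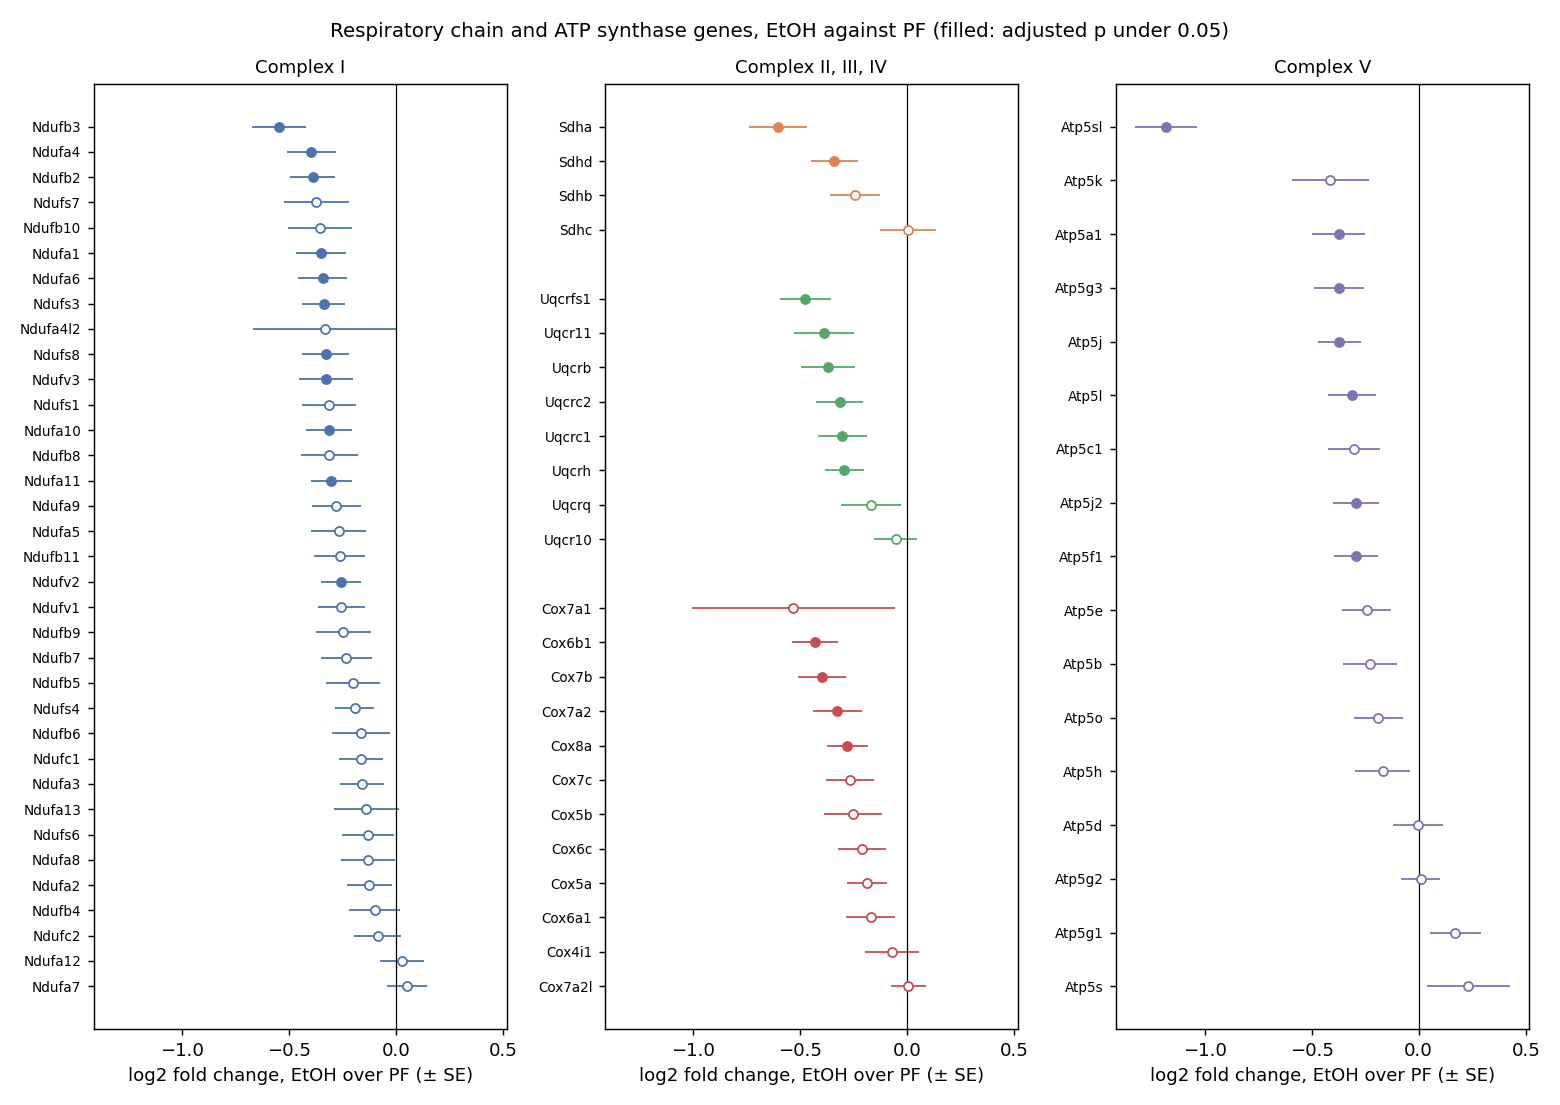
Log2 fold change of the tested genes, with 1 complex I gene not drawn, in EtOH over PF livers with its standard error (horizontal axis), by complex as the symbols assign it. Filled points passed an adjusted p of 0.05; all of them lie left of zero, and Atp5sl at -1.18 stands apart from the others.

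The count depended on which libraries entered. It was 15 without EtOH 1, 53 without EtOH 3, 20 without EtOH 4, 18 without PF 1 and 14 without PF 4, and it was 8 when only the EtOH and PF libraries were fitted and 15 when both EtOH 1 and EtOH+MBV 1 were left out. In all these fits 0 genes were higher. Over all genes the calls moved less, from 5137 to between 4268 and 5069 when 1 library was left out, to 3757 with the EtOH and PF libraries only and to 5419 without both EtOH 1 and EtOH+MBV 1. With TMM scaling EtOH 1 was the lowest EtOH library for 71 of the 77 genes and EtOH 3 the highest for 69. The median gene lay at -0.58, -0.24, -0.01 and -0.27 on the log2 scale against the PF mean in EtOH 1 to EtOH 4. The TMM factor was 1.27 in EtOH 1 and 0.863 in EtOH 3, the extremes of the 16 libraries.

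Markers of liver cells also set EtOH 1 apart. It was the highest EtOH library for 5 of 5 Kupffer cell markers, which summed there to 408 CPM, against 126 to 174 CPM in EtOH 2 to EtOH 4. It was also the highest for 7 of 8 markers of monocytes and recruited macrophages, which summed to 100 CPM against 41.5 to 55.9 CPM. It was the highest for 3 of 6 stellate cell markers, which summed to 378 CPM, against 202 to 267 CPM. EtOH 1 was the lowest for 8 of 9 hepatocyte markers, among them Ttr, at 1542 CPM against 3056 to 3951 CPM, and Serpina1c, at 1693 against 3416 to 4528 CPM. With plain totals EtOH 1 was the highest for all 5 Kupffer and all 6 stellate markers, while it was the lowest for 4 and the highest for 2 of the 9 hepatocyte markers. The part of these markers in the low values of EtOH 1 was not tested.

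Scaled by plain library totals, the EtOH libraries lay close together. The median coefficient of variation over the 77 genes in EtOH livers was 6.65% with plain totals and 17.1% with TMM. In EtOH+MBV livers it was larger with plain totals, at 11.6% against 8.29% with TMM. The sum of the 84 genes, as plain CPM, averaged 9195 ± 962 in EtOH+MBV, 9292 ± 260 in EtOH, 11350 ± 332 in PF+MBV and 11120 ± 390 in PF livers (SD, n = 4 each). With TMM the sums were 9719 ± 644 in EtOH+MBV, 9226 ± 1540 in EtOH, 10890 ± 314 in PF+MBV and 11170 ± 635 in PF livers. With plain totals every EtOH library lay below every PF library in 44 of the 77 genes (57.1%), against 14.1% of all genes. With that scaling 36 of the 77 genes passed the test, and the share of all genes that passed is not given here.

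**Figure D2:**
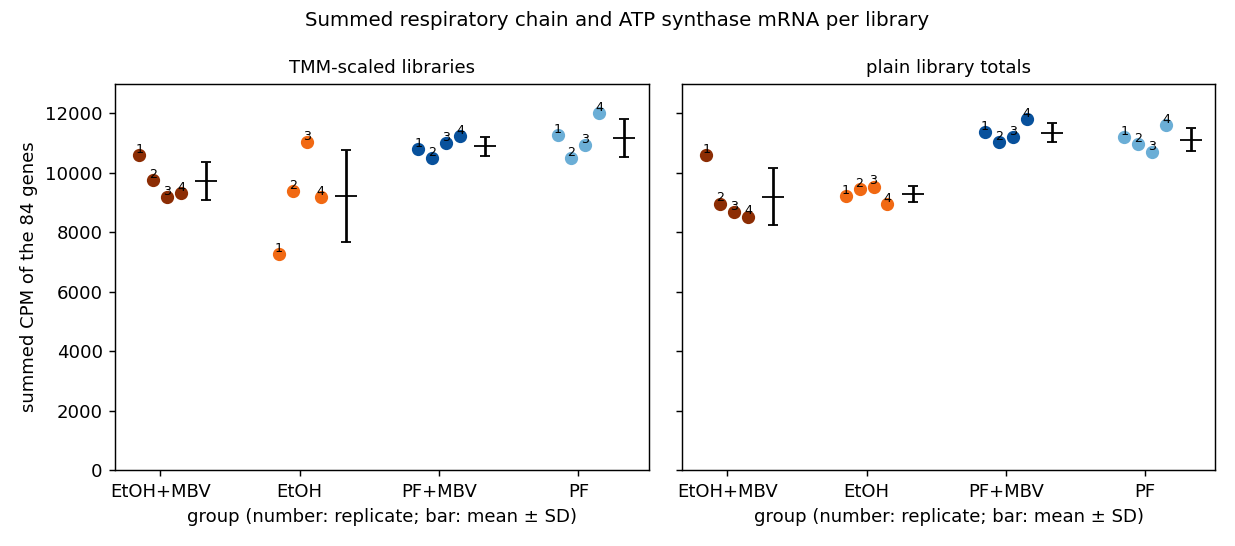
Summed CPM of the 84 genes in each library (points, numbered by replicate) with the group mean and SD, scaled by TMM on the left and by plain library totals on the right. EtOH 1 and EtOH 3 lie at 7284 and 11050 CPM with TMM scaling, and the 4 EtOH libraries close up around 9292 CPM with plain totals.

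Within complex I, the NADH dehydrogenase, 12 of 36 tested genes were lower in EtOH livers (33.3%) and the median log2 fold change was -0.27. Of all genes, 39.8% were called in either direction and 19.5% were lower. The counts by complex and by part of a complex are descriptions and were not tested as sets. Among the 7 genes of the catalytic core, which carry the flavin and iron-sulfur clusters or line the quinone site, 4 were lower, among them Ndufs3 (-0.34 ± 0.10, SE), Ndufs8 and Ndufv2. Among 27 accessory genes, 7 were lower: Ndufb3, Ndufb2, Ndufa1, Ndufa6, Ndufa10, Ndufa11 and Ndufv3. The 12th, Ndufa4 (-0.40 ± 0.11), has a complex I symbol but is now counted with complex IV.

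Ndufb3, an accessory subunit of the membrane arm (chr1:58586384-58595964, mm10), had the smallest p of the complex. Its level was 32.2, 28.8, 25.7 and 24.2 CPM in EtOH+MBV, 19.3, 26.1, 31.8 and 25.9 CPM in EtOH, 33.7, 33.1, 33.3 and 37.9 CPM in PF+MBV, and 35.99, 39.8, 36.7 and 37.9 CPM in PF livers. All EtOH libraries were below all PF libraries, and every library on ethanol was below every pair-fed library. The EtOH against PF fold was 1.46 lower (log2 -0.55 ± 0.13, SE, edgeR adjusted p = 0.00306).

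Ndufb2, another membrane arm subunit, had 29.1, 26.1, 28.1 and 26.1 CPM in EtOH+MBV, 22.6, 25.8, 31.7 and 25.5 CPM in EtOH, 36.3, 34.1, 37.4 and 36.5 CPM in PF+MBV, and 33.2, 35.6, 30.3 and 39.1 CPM in PF livers. EtOH 3 lay above the lowest PF library, so these groups overlapped. The gene was 1.31-fold lower in EtOH livers (log2 -0.39 ± 0.11, edgeR adjusted p = 0.00786). An exon of Ndufb2 overlaps Braf on the other strand, and the counts used do not separate strands; such overlaps touch 16 of the 84 genes and 7 of the 31 that were lower. Ndufa12 and Ndufa7, both accessory, were the members of complex I above zero, at 0.03 ± 0.10 and 0.05 ± 0.10 on the log2 scale, and neither passed the test.

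Complex II, succinate dehydrogenase, is the enzyme that the respiratory chain shares with the tricarboxylic acid cycle. Of its 4 genes, Sdha and Sdhd were lower in EtOH livers, and Sdhb and Sdhc did not pass the test. That is 50% called, against 39.8% of all genes called and 19.5% lower. Sdha encodes the flavoprotein that oxidises succinate (chr13:74322254-74350280, mm10). It had 557, 482, 485 and 475 CPM in EtOH+MBV, 306.5, 436, 540.2 and 446 CPM in EtOH, 659, 647, 656 and 664 CPM in PF+MBV, and 689, 635, 622 and 683 CPM in PF livers. No library on ethanol reached the lowest pair-fed library. The EtOH against PF fold was 1.52 lower (log2 -0.60 ± 0.14, edgeR adjusted p = 0.00237).

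Sdhd, a membrane anchor, had 168, 159.6, 138.5 and 140.2 CPM in EtOH+MBV, 131, 154, 179.6 and 149 CPM in EtOH, 178, 181, 187.5 and 188 CPM in PF+MBV, and 193, 173, 187 and 224 CPM in PF livers. EtOH 3 overlapped the PF range, and the gene was 1.27-fold lower in EtOH livers (log2 -0.34 ± 0.11, edgeR adjusted p = 0.0208), a call lost without PF 4. Sdhc, the other anchor, was at 0.00 ± 0.13 on the log2 scale.

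The mix of complex II counts therefore differed between diets in a way that no library scaling can move. Sdha made up 51.2% ± 1.64 of the 4 genes' counts in EtOH+MBV, 47.1% ± 1.85 in EtOH, 55.5% ± 0.660 in PF+MBV and 54.5% ± 2.00 in PF livers (SD, n = 4 each). Sdhc made up 17.6% ± 0.804 in EtOH+MBV, 18.4% ± 0.855 in EtOH, 14.3% ± 0.210 in PF+MBV and 13.9% ± 0.669 in PF livers. The EtOH range for Sdha was 44.5% to 48.7%, and the PF range was 52.1% to 56.8%. The EtOH+MBV range, 48.8% to 52.3%, lay just above the EtOH range and overlapped the PF range. These shares were chosen after the values were seen and were not tested.

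Complex II was also the complex whose share of the 84 genes' CPM did not overlap between diets in either treatment. It took 10.0% ± 0.161 in EtOH+MBV, 9.87% ± 0.292 in EtOH, 10.9% ± 0.0963 in PF+MBV and 10.8% ± 0.217 in PF livers. The share of complex IV was higher in EtOH than in PF livers, at 15.3% ± 0.173 and 14.6% ± 0.175, with no overlap, and overlapped between EtOH+MBV and PF+MBV livers. Complexes I, III and V took 24.7%, 10.9% and 39.3% in EtOH and 24.4%, 11.2% and 39.0% in PF livers, and their EtOH and PF ranges overlapped. The complex V share was 38.9% to 39.6% in EtOH+MBV and 38.2% to 38.8% in PF+MBV livers.

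**Figure D3:**
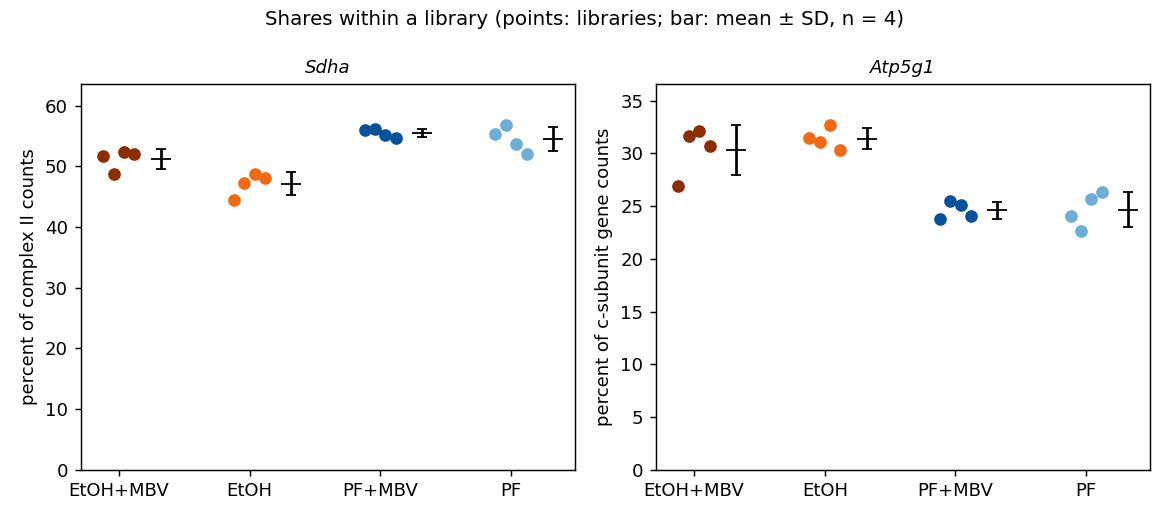
Share of Sdha in the counts of the 4 complex II genes (left) and of Atp5g1 in the counts of the 3 c-subunit genes (right), in percent, by library with the group mean and SD. Sdha averaged 47.1% in EtOH and 54.5% in PF livers; Atp5g1 averaged 31.4% in EtOH and 24.7% in PF livers.

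Complex III, which passes electrons from ubiquinol to cytochrome c, had 6 of its 8 genes lower in EtOH livers, with a median log2 fold change of -0.31. That is 75% called, against 39.8% of all genes called and 19.5% lower. The 3 genes of the core and the Rieske protein, Uqcrc1 (-0.30 ± 0.12), Uqcrc2 (-0.32 ± 0.11) and Uqcrfs1, were all lower. Of 5 small subunit genes, Uqcrh, Uqcrb (-0.37 ± 0.13) and Uqcr11 (-0.39 ± 0.14) were lower, and Uqcrq and Uqcr10 did not pass the test.

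Uqcrfs1, the Rieske iron-sulfur protein (chr13:30540308-30545362, mm10), had 166, 159, 136 and 135.5 CPM in EtOH+MBV, 117, 144, 169.7 and 143 CPM in EtOH, 175, 173, 192 and 193 CPM in PF+MBV, and 199, 176, 195 and 227.5 CPM in PF livers. The ethanol and pair-fed libraries did not overlap. It was 1.39-fold lower in EtOH livers (log2 -0.48 ± 0.12, edgeR adjusted p = 0.00463). Uqcrh, the hinge protein next to cytochrome c1, had 102, 108, 93.0 and 99.0 CPM in EtOH+MBV, 87.1, 99.7, 117 and 104 CPM in EtOH, 112, 118, 111 and 109.6 CPM in PF+MBV, and 121, 119.7, 126 and 133 CPM in PF livers. Each EtOH library was below each PF library, and the fold was 1.23 lower (log2 -0.29 ± 0.09, edgeR adjusted p = 0.0172).

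In complex IV, cytochrome c oxidase, 4 of 12 tested genes were lower in EtOH livers: Cox6b1, Cox7b, Cox7a2 (-0.33 ± 0.12) and Cox8a (-0.28 ± 0.10). That is 33.3% called, against 39.8% of all genes called and 19.5% lower. With Ndufa4 counted here, 5 of 13 were lower. Cox4i1, the widely expressed form of subunit IV, was at -0.07 ± 0.13, and Cox7a2l, a factor for the assembly of respiratory supercomplexes, was at 0.01 ± 0.08.

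Cox6b1, a subunit on the cytochrome c side (chr7:30616861-30626151, mm10), had 130.2, 120.4, 108 and 104 CPM in EtOH+MBV, 92.5, 111, 136 and 112 CPM in EtOH, 143, 141, 140.1 and 146 CPM in PF+MBV, and 149.6, 146, 149 and 163 CPM in PF livers. The ethanol and pair-fed libraries did not overlap. The gene was 1.35-fold lower in EtOH livers (log2 -0.43 ± 0.11, edgeR adjusted p = 0.00496). Cox7b, a small membrane subunit, had 92.1, 78.9, 79.9 and 81.4 CPM in EtOH+MBV, 62.4, 79.99, 99.95 and 75.3 CPM in EtOH, 96.6, 94.3, 100.3 and 97.1 CPM in PF+MBV, and 102, 107, 99.7 and 109.8 CPM in PF livers. EtOH 3 just exceeded the lowest PF library, and the fold was 1.32 lower (log2 -0.40 ± 0.11, edgeR adjusted p = 0.0105).

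Of the 18 complex IV genes, 6 did not reach the count filter. These are mostly forms known from muscle, brown fat, lung or testis: Cox7b2 and Cox8c had 0 counts in all 16 libraries, and Cox4i2, Cox6a2, Cox6b2 and Cox8b reached at most 0.201, 0.188, 1.02 and 0.235 CPM. The 7th gene that was not tested, Ndufs5 of complex I, was listed at 0 in all libraries and its level is not analysed here. Ndufa4l2, a hypoxia-induced relative of Ndufa4, had 1.59, 0.737, 0.509 and 0.879 CPM in EtOH+MBV, 0.774, 1.57, 1.14 and 0.838 CPM in EtOH, 1.29, 0.919, 1.46 and 0.974 CPM in PF+MBV, and 1.65, 1.13, 1.30 and 1.37 CPM in PF livers. Its groups overlapped and its EtOH against PF difference was -0.33 ± 0.33 on the log2 scale.

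In complex V, 7 of 17 genes were lower in EtOH livers. That is 41.2% called, near the 39.8% of all genes called, of which 19.5% of all genes were lower. Of the 5 genes of the catalytic F1 head, Atp5a1 (alpha subunit, -0.37 ± 0.13) was lower, and Atp5b (beta subunit, -0.23 ± 0.12) did not pass the test. Of the 4 genes of the peripheral stalk, Atp5j and Atp5f1 (-0.29 ± 0.10) were lower, and of the 3 small membrane subunits Atp5j2 (-0.29 ± 0.11) and Atp5l (-0.31 ± 0.11) were lower. Atp5j, coupling factor 6 of the stalk (chr16:84827866-84835625, mm10), had 122, 105, 106 and 103 CPM in EtOH+MBV, 81.3, 105, 118.5 and 101 CPM in EtOH, 119, 122, 127.5 and 120.1 CPM in PF+MBV, and 131, 126, 134 and 133 CPM in PF livers. All EtOH libraries lay below all PF libraries, and the gene was 1.29-fold lower (log2 -0.37 ± 0.10, edgeR adjusted p = 0.00865). Its exons overlap Gabpa, the DNA-binding subunit of GABP, on the other strand.

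The rotating c ring is built from 1 mature protein encoded by Atp5g1, Atp5g2 and Atp5g3, which differ in their import sequences. Atp5g3 (chr2:73908447-73911326, mm10) had 299, 271, 262 and 262 CPM in EtOH+MBV, 197.5, 263, 306 and 248.5 CPM in EtOH, 297, 294.5, 306 and 319 CPM in PF+MBV, and 339, 313, 308 and 354 CPM in PF livers. It was lower in every EtOH library than in any PF library (log2 -0.37 ± 0.12, edgeR adjusted p = 0.0178).

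Atp5g1 had 130.2, 147, 148 and 139 CPM in EtOH+MBV, 115, 145, 176 and 129 CPM in EtOH, 111, 121, 122 and 121 CPM in PF+MBV, and 124.5, 109, 125 and 143 CPM in PF livers. The EtOH and PF libraries overlapped (log2 0.17 ± 0.12, edgeR adjusted p = 0.265). Atp5g2 had 54.5, 44.5, 51.3 and 52.9 CPM in EtOH+MBV, 52.0, 58.8, 55.7 and 49.1 CPM in EtOH, 56.7, 58.1, 59.3 and 61.9 CPM in PF+MBV, and 52.5, 60.8, 52.8 and 48.0 CPM in PF livers, with overlapping groups (log2 0.01 ± 0.09).

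Within a library, Atp5g1 made up 30.4% ± 2.38 of the counts of the 3 genes in EtOH+MBV, 31.4% ± 1.02 in EtOH, 24.6% ± 0.779 in PF+MBV and 24.7% ± 1.67 in PF livers (SD, n = 4 each). Atp5g3 made up 58.7% ± 2.20 in EtOH+MBV, 56.4% ± 1.67 in EtOH, 63.1% ± 0.775 in PF+MBV and 64.7% ± 0.955 in PF livers. For both genes no ethanol library entered the pair-fed range, in either treatment. As for Sdha, these shares do not depend on library scaling and were not tested.

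Atp5sl and Atp5s carry complex V symbols but are not subunits of the enzyme. Atp5sl is now named Dmac2, a factor in the assembly of the complex I membrane arm, and Atp5s is factor B. Atp5sl (chr7:25619414-25625551, mm10) had 28.3, 16.3, 17.3 and 19.3 CPM in EtOH+MBV, 17.6, 22.3, 21.7 and 18.2 CPM in EtOH, 36.9, 35.4, 37.3 and 40.2 CPM in PF+MBV, and 46.3, 40.8, 43.9 and 49.6 CPM in PF livers. Ethanol and pair-fed libraries were far apart, and the EtOH against PF fold, 2.27 lower (log2 -1.18 ± 0.15, edgeR adjusted p = 1.77e-05), was the largest of the 77. Atp5s had 5.43, 6.96, 5.48 and 3.64 CPM in EtOH+MBV, 5.81, 5.64, 4.83 and 4.32 CPM in EtOH, 6.05, 4.22, 5.15 and 5.56 CPM in PF+MBV, and 4.22, 5.39, 3.94 and 4.04 CPM in PF livers, the largest difference above zero (log2 0.23 ± 0.19, edgeR adjusted p = 0.359) with overlapping groups. Without these 2 genes, 6 of 15 complex V genes were lower.

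**Figure D4:**
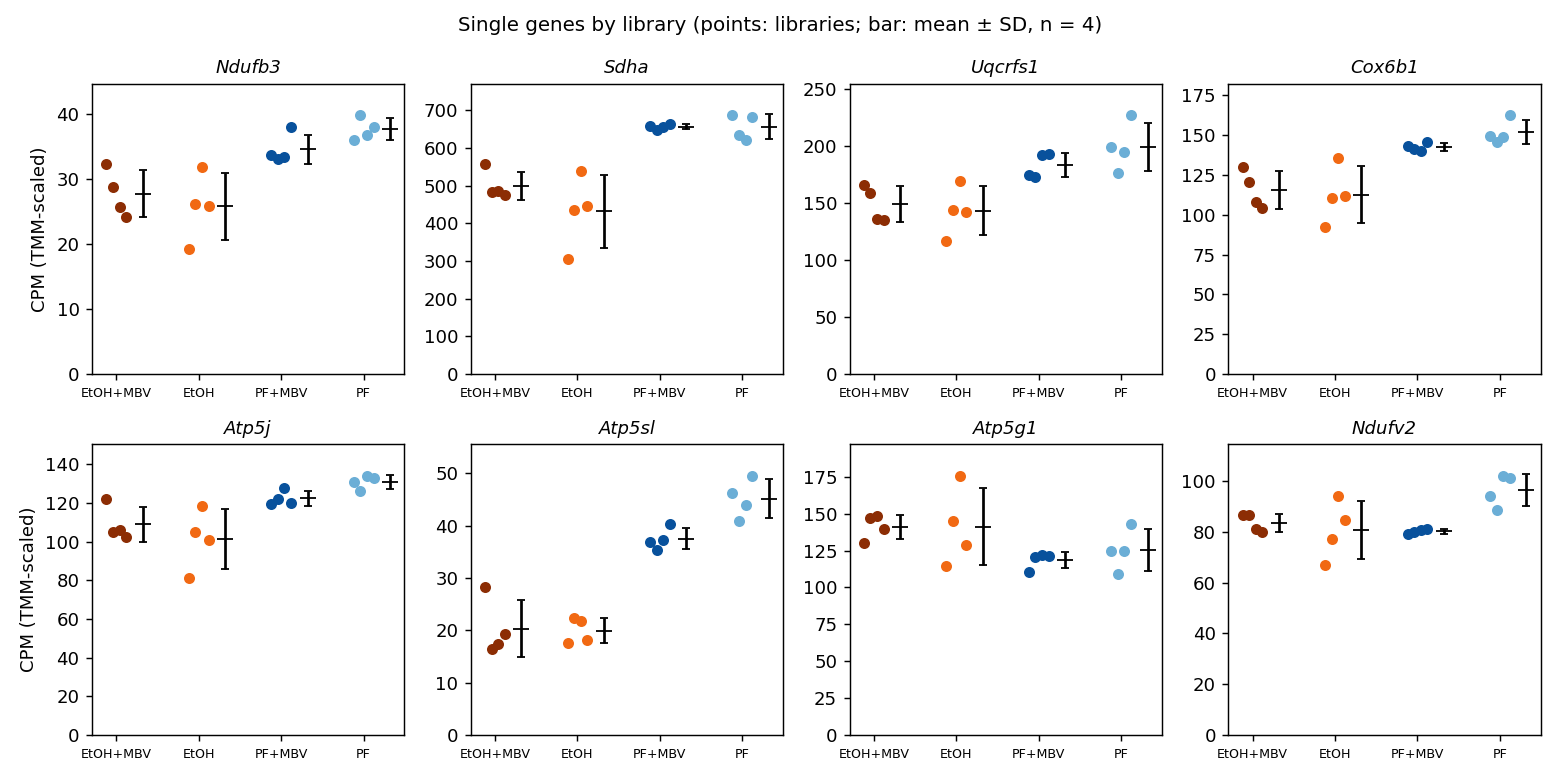
TMM-scaled CPM of 8 genes in each library (points) with the group mean and SD, 4 libraries a group. For Ndufb3, Sdha, Uqcrfs1, Cox6b1, Atp5j and Atp5sl all EtOH libraries lie below all PF libraries, and Atp5sl has the widest gap.

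Per kilobase of exon, the 2 highest levels in PF livers were of complex V genes. Atp5b had 590 ± 103 CPM per kb in EtOH and 690.5 ± 46.7 CPM per kb in PF livers, and Atp5g3 had 350.5 ± 61.9 and 453.5 ± 29.9 CPM per kb in the same groups (SD, n = 4). In complex IV, Cox6a1 had 366 ± 62.5 and Cox4i1 366 ± 65.9 CPM per kb in EtOH livers, against 412 ± 29.0 and 384.5 ± 46.2 CPM per kb in PF livers, and these genes did not differ beyond their spread within a group. The leading genes of complexes I, II and III in PF livers were Ndufa4, Sdha and Uqcrh, at 308, 227 and 228.5 CPM per kb.

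The promoter motifs were set beside the calls. A window was available for 27 of the 31 genes lower in EtOH livers and for 38 tested genes with no call. At least 1 of the NRF1, ETS and YY1 cores was in 12 of the 27 (44.4%) and in 13 of the 38 (34.2%). The CRE was in 4 of the 27, those of Ndufa10, Ndufa11, Ndufb2 and Uqcrfs1, and in 0 of the 38. The ESRRA element was in 2 of the 27, those of Sdhd and Atp5g3, and in 0 of the 38. These counts are small and were not tested.

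The same diet contrast with MBV on both sides, EtOH+MBV against PF+MBV, uses the other 8 libraries. Of the 77 genes, 11 were lower in EtOH+MBV livers and 0 higher, which is 14.3%, where 35.9% of all genes passed in either direction, 16.7% lower and 19.2% higher. The share of genes that were lower is thus near the background. Among the 11, Cox7a1 passed the count filter only through pair-fed libraries, so its direction was in part fixed by the filter, and without it 10 of 76 genes were lower (13.2%). The median log2 fold change was -0.17 for the 77 genes, with 68 below zero, against -0.01 over all genes. In 26 genes other than Cox7a1 every EtOH+MBV library was below every PF+MBV library, where 19.9% of all genes were lower in this sense and 19.2% higher. The exception in direction was Atp5g1, above every PF+MBV library in each EtOH+MBV library (log2 0.25 ± 0.12, edgeR adjusted p = 0.109).

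The 10 genes other than Cox7a1 were Ndufa1, Ndufa3, Ndufa6 and Ndufb2 of complex I, Sdha, the complex IV genes Cox6b1 and Cox8a, and the complex V genes Atp5e (epsilon subunit), Atp5j2 and Atp5sl. Of them 8 had also been lower in EtOH against PF, which is 25.8% of the 31: Ndufa1, Ndufa6, Ndufb2, Sdha, Cox6b1, Cox8a, Atp5j2 and Atp5sl. The matching share over all genes is not given, so this overlap is not shown to be particular to these genes. In complex III, 0 of 8 genes passed. Across the 77 genes 67 were below zero in both contrasts, which share no library (Pearson's r = 0.53, Spearman's rho = 0.65, a description across genes). With TMM scaling 56 were closer to zero with MBV than without, and no values over all genes are set beside these. With plain totals the sums of the 84 genes averaged 9195 CPM in EtOH+MBV against 11350 CPM in PF+MBV livers. Without MBV they averaged 9292 CPM in EtOH against 11120 CPM in PF livers. By these sums the diet difference was not smaller with MBV.

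Ndufa6, an accessory subunit of complex I, had 86.5, 74.6, 64.8 and 59.6 CPM in EtOH+MBV, 62.6, 80.04, 84.8 and 70.4 CPM in EtOH, 106, 104, 107 and 116 CPM in PF+MBV, and 99.5, 95.03, 91.5 and 91.8 CPM in PF livers. The diets did not overlap in either treatment. It was 1.51-fold lower in EtOH+MBV livers (log2 -0.60 ± 0.12, edgeR adjusted p = 0.000999) and 1.27-fold lower in EtOH livers (log2 -0.34 ± 0.12, edgeR adjusted p = 0.0260). Atp5sl was 1.84-fold lower in EtOH+MBV livers (log2 -0.88 ± 0.14, edgeR adjusted p = 0.000313), and Sdha was 1.31-fold lower (log2 -0.39 ± 0.14, edgeR adjusted p = 0.0318).

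The count of 11 moved with the processing. It was 46 with plain library totals, which set all genes lower by a median of 0.15 on the log2 scale in this contrast, and 26 with upper quartile scaling. It was 7 without the filter on low counts, 24 when only these 2 groups were fitted, 31 without EtOH 1 and EtOH+MBV 1, 18 without EtOH+MBV 1 and 6 without each of EtOH+MBV 2, EtOH+MBV 3, EtOH+MBV 4, PF+MBV 1, PF+MBV 3 and PF+MBV 4. EtOH+MBV 1 was the highest EtOH+MBV library for 63 of the 77 genes. These counts include Cox7a1, except that of the 2 groups only, in which it was not tested. Atp5g1 was called higher in 2 of these fits, that of the 2 groups only (log2 0.26, adjusted p = 0.0198) and that without EtOH 1 and EtOH+MBV 1 (log2 0.30, adjusted p = 0.0311).

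Cox7a1, the heart and muscle form of subunit VIIa that brown fat also expresses, had the largest fold in this contrast at very low levels. It had 0.110, 0.201, 0.0637 and 0.189 CPM in EtOH+MBV, 0.290, 0.233, 0.537 and 0.258 CPM in EtOH, 1.23, 0.865, 0.833 and 0.401 CPM in PF+MBV, and 0.794, 0.313, 0.249 and 0.559 CPM in PF livers. All EtOH+MBV libraries were below all others. These levels rest on 9 counts in EtOH+MBV and 60 in PF+MBV livers, a ratio of 5.98 (95% exact interval 2.95 to 13.7, counting error only). Cox7a1 reached the CPM limit of the count filter in 0 of 8 ethanol libraries, 3 PF+MBV libraries and 1 PF library. It was thus tested only because it was high in pair-fed livers, and its call among the filtered genes is no support for a difference. Without the filter on low counts its log2 fold change was -2.51 ± 0.56 (edgeR adjusted p = 0.00272 over all genes with a count). The EtOH against PF difference was -0.53 ± 0.47 on the log2 scale and did not pass.

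Fat markers are set beside Cox7a1. Of 4 adipocyte markers only Cfd was tested; it reached the filter limit in 0 of 8 ethanol and all 8 pair-fed libraries, so its levels are given without a call. The 4 markers summed to 0 to 0.255 CPM in EtOH+MBV, 0 to 0.0968 in EtOH, 3.28 to 66.3 in PF+MBV and 5.78 to 19.3 in PF livers, nearly all from Cfd, with Lep at 0 in every library. The 4 brown fat markers, of which Cox7a1 and Cox8b are themselves members here, summed to 0.469 to 6.64 CPM in EtOH+MBV, 0.290 to 0.873 in EtOH, 2 to 26 in PF+MBV and 1.18 to 7.08 in PF livers. Cidea was the highest of the 4 except in the EtOH libraries and PF 4, where Cox7a1 was highest. The sums of those libraries thus come in large part from Cox7a1 itself. The EtOH+MBV and PF+MBV sums overlapped, and Cidea did not pass the test between these groups (log2 -1.53 ± 0.97, edgeR adjusted p = 0.233). Ucp1 reached 2.17 CPM in PF+MBV 1, the library with the highest Cox7a1. Cidea and Cfd were instead highest in PF+MBV 4, at 25.5 and 66.35 CPM, the PF+MBV library with the lowest Cox7a1. The part of fat markers in the result was not tested.

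MBV treatment under ethanol, EtOH+MBV against EtOH, asks whether MBV changed these genes in ethanol-fed mice. None of the 77 genes was called (0 of 77 by edgeR, 0 by DESeq2 and 0 by limma voom), and 0 had an unadjusted p under 0.05, where 2.69% of all genes were called. The median log2 difference was 0.06, with 59 of 77 genes above zero, and the median standard error of a gene was 0.12. With plain totals the median was -0.04, where that scaling sets the median of all genes at -0.11, and without EtOH 1 it was -0.02, so its sign depends on the scaling and on EtOH 1. A p that misses the limit does not show equal levels. This contrast shares the EtOH libraries with EtOH against PF.

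The 3 genes with the smallest p were Cox7a1 (log2 -1.18 ± 0.57, edgeR adjusted p = 0.245), Ndufv1 and Sdha (log2 0.21 ± 0.14, edgeR adjusted p = 0.398). Cox7a1 passed the count filter only through pair-fed libraries and rested here on 9 counts in EtOH+MBV and 22 in EtOH livers. Ndufv1, the flavoprotein that accepts electrons from NADH, had 159, 145, 139 and 137 CPM in EtOH+MBV, 97.1, 137, 147 and 131 CPM in EtOH, 146, 140.1, 148 and 158 CPM in PF+MBV, and 153, 144, 153 and 162 CPM in PF livers. EtOH 1 was far below the other EtOH libraries, which overlapped the EtOH+MBV range (log2 0.18 ± 0.11, edgeR adjusted p = 0.371).

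MBV treatment of pair-fed mice, PF+MBV against PF, gave 0 calls among the 77 genes by edgeR, DESeq2 or limma voom, where 1.78% of all genes were called, and 1 gene, Ndufv2, had an unadjusted p under 0.05. The median log2 difference was -0.03. Ndufv2, an iron-sulfur subunit of the NADH module, had 86.8, 86.6, 81.0 and 79.8 CPM in EtOH+MBV, 66.9, 77.2, 94.2 and 84.7 CPM in EtOH, 79.1, 79.8, 80.7 and 81.2 CPM in PF+MBV, and 94.3, 88.5, 102 and 101 CPM in PF livers. Every PF+MBV library was below every PF library (log2 -0.27 ± 0.10, edgeR adjusted p = 0.155), and the gene was called when only these 2 groups were fitted (log2 -0.27, adjusted p = 0.0343).

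Cox7a2l and Atp5sl followed by p. Cox7a2l had 87.3, 84.7, 81.3 and 89.8 CPM in EtOH+MBV, 84.5, 95.9, 95.5 and 92.5 CPM in EtOH, 78.8, 78.9, 84.7 and 85.4 CPM in PF+MBV, and 93.6, 80, 94.6 and 98.8 CPM in PF livers (PF+MBV against PF log2 -0.16 ± 0.08, edgeR adjusted p = 0.335), and the groups overlapped. For Atp5sl every PF+MBV library was below every PF library (log2 -0.27 ± 0.14, edgeR adjusted p = 0.355).

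**Figure D5:**
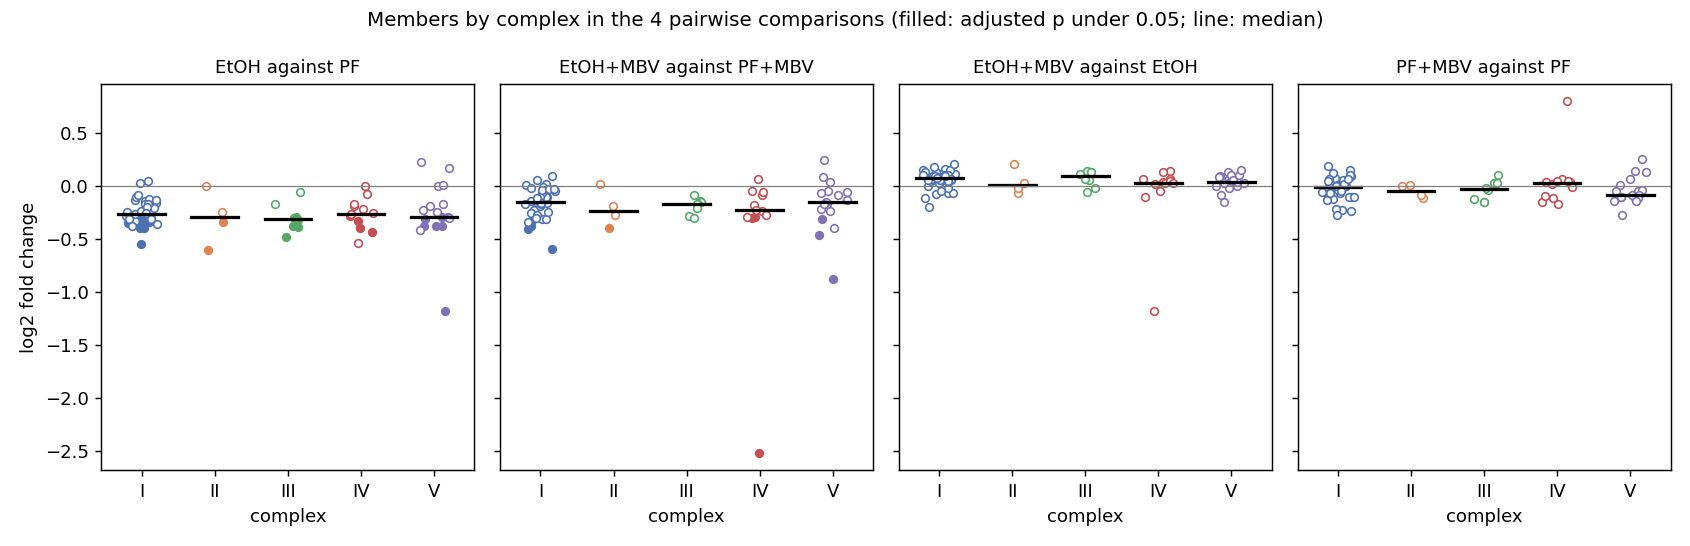
Log2 fold change of the 77 tested genes by complex in the 4 pairwise comparisons, with the median of each complex as a line and filled points for an adjusted p under 0.05. Medians lie at or below -0.147 in both diet comparisons and from -0.079 to 0.093 in both MBV comparisons, where no point is filled. Cox7a1, at -2.52 in EtOH+MBV against PF+MBV, passed the count filter only through pair-fed libraries.

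The interaction asked whether the diet difference itself changed with MBV. It was called in 0 of 77 genes by edgeR, DESeq2 or limma voom, where 4.11% of all genes were called, and 2 genes had an unadjusted p under 0.05, Cox7a1 (log2 -1.99 ± 0.71, edgeR adjusted p = 0.112) and Ndufv2 (log2 0.32 ± 0.14, edgeR adjusted p = 0.172). Atp5g2 came next by p (log2 -0.23 ± 0.13, edgeR adjusted p = 0.308). Cox7a1 reached the limit of the count filter in 3 PF+MBV libraries, 1 PF library and no ethanol library. The direction of its interaction was thus in part fixed by the filter, and its p is no support for an interaction. Over the 77 genes the median was 0.10 and the median standard error of a gene 0.16. In the main fit fewer genes were called between diets with MBV than without. With plain totals, with the 2 groups only and without EtOH 1 and EtOH+MBV 1, more were called with MBV. The counts of calls are thus not shown to differ between treatments.

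Genes that work with the complexes were taken from lists of textbook members, and their shares of calls in EtOH against PF are set against the 39.8% of all genes. Of 43 tested assembly factors, 19 were lower and 1 higher in EtOH livers, with a median log2 fold change of -0.36; the 46.5% called is near that background. Ndufaf4 (log2 -0.98 ± 0.17, edgeR adjusted p = 0.000406) and Ndufaf1 (-0.70 ± 0.14, 0.00127), both complex I factors, Sco1 (-0.60 ± 0.11, 0.000454), a copper chaperone of complex IV, and Ecsit (-0.57 ± 0.11, 0.000856) were those with the smallest p, all lower, and Cox19 (0.33 ± 0.10) was higher. The diet difference of Ndufaf4 was -0.98 ± 0.17 without MBV and 0.23 ± 0.17 with MBV (interaction log2 1.22 ± 0.25, edgeR adjusted p = 0.0188), and Ndufaf4 was also lower in PF+MBV than in PF livers (-0.95 ± 0.17, edgeR adjusted p = 0.0129).

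Of 6 further respiratory genes that the symbol patterns miss, Cyc1 (cytochrome c1, -0.31 ± 0.11), Cycs (cytochrome c, -0.30 ± 0.11) and Usmg5 (a small subunit of the ATP synthase, -0.33 ± 0.10) were lower in EtOH livers, and Atpif1, the inhibitor of ATP hydrolysis by complex V, was higher (0.46 ± 0.16, edgeR adjusted p = 0.0315). Of 20 electron carrier and ubiquinone synthesis genes, 6 were lower, among them Coq5 (-0.60 ± 0.14), Coq9 (-0.47 ± 0.11) and Etfdh (-0.62 ± 0.14), and Ucp2 was higher (0.65 ± 0.17), so that 35.0% were called, below the share of all genes. Of 19 tricarboxylic acid cycle and pyruvate dehydrogenase genes, 4 were lower, including Sucla2 (-0.68 ± 0.11) and Suclg1 (-0.54 ± 0.11), which act just before succinate dehydrogenase, and Idh2 (0.89 ± 0.11) and Mdh2 (0.27 ± 0.10) were higher. That is 31.6% called, below the share of all genes.

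Of 21 regulators of mitochondrial biogenesis and mitochondrial DNA expression, 5 were lower and 2 higher in EtOH livers, 33.3% against 39.8% of all genes, so the list as a whole does not stand above the background. Polg2 (-1.12 ± 0.24), a subunit of the mitochondrial DNA polymerase, Esrra (-0.70 ± 0.16) and Mterf4 (-0.81 ± 0.21) were among those lower, and Nrf1 (0.68 ± 0.18, edgeR adjusted p = 0.00614) and Gabpb1 (0.69 ± 0.23, edgeR adjusted p = 0.0241) were higher. The interaction passed for Esrra (0.83 ± 0.22, edgeR adjusted p = 0.0477), Pprc1 (1.07 ± 0.28, edgeR adjusted p = 0.0433) and Tfb1m (0.86 ± 0.22, edgeR adjusted p = 0.0402). That is 14.3% of the 21, where 4.11% of all genes were called. Esrra was at 0.13 ± 0.16 in EtOH+MBV against PF+MBV and, like Tfb1m, was lower in PF+MBV than in PF livers (-0.71 ± 0.16 and -0.64 ± 0.16, edgeR adjusted p = 0.0344 and 0.0491). In EtOH+MBV 1 Esrra was at 36.96 CPM, and in EtOH+MBV 2 to EtOH+MBV 4 at 19.96 to 21.61 CPM. The PF+MBV range of Esrra was 20.87 to 25.9 CPM.

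Calls of liver cell markers are given for both diet contrasts, where 39.8% of all genes were called without MBV and 35.9% with it. Without MBV the endothelial (85.7%), stellate (83.3%) and monocyte (50%) lists lay above that background. The Kupffer (20%), cholangiocyte (20%) and hepatocyte (22.2%) lists lay below it. With MBV the Kupffer (20%) and stellate (33.3%) lists were below the background and the others above. The lists are short, and these shares were not tested. Of 7 liver endothelial markers, 5 were lower and Lyve1 was higher in EtOH livers, and 4 were lower and 1 higher in EtOH+MBV against PF+MBV livers. They summed to 319 to 434 CPM in EtOH+MBV, 296 to 360 in EtOH, 414 to 456 in PF+MBV and 384 to 459 in PF livers. Of 6 stellate cell markers, 4 were higher and 1 lower in EtOH against PF livers, but 0 were higher and 2 lower in EtOH+MBV against PF+MBV livers. The interaction passed for 1 of the 6, the collagen gene Col3a1 (log2 -2.44 ± 0.61, edgeR adjusted p = 0.0376). EtOH 1 stood apart for this gene, with 59.19 CPM where the other EtOH libraries had 8.512 to 16.81 CPM. The PF range was 13.32 to 20.88 CPM, so the size of the interaction leans on EtOH 1. Col1a1 likewise had 52.81 CPM in EtOH 1 and no more than 19.37 CPM in any other EtOH library.

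Of 5 Kupffer cell markers, Marco was higher in EtOH against PF livers (log2 2.76 ± 0.68, edgeR adjusted p = 0.00443). EtOH 1 held 60.74 CPM of Marco, far above the 5.37 to 12.12 CPM of the other EtOH libraries. PF 2, with 6.202 CPM, exceeded EtOH 3, so the groups overlapped. The other 4 Kupffer markers lay below zero in this contrast. Clec4f was lower in EtOH+MBV against PF+MBV livers (log2 -0.46 ± 0.16, edgeR adjusted p = 0.0380). Of 6 tested markers of monocytes and recruited macrophages, 2 were higher and 1 lower in EtOH livers, and 0 were higher and 3 lower in EtOH+MBV against PF+MBV livers. Of 5 cholangiocyte markers, 1 was higher and 0 lower in EtOH livers, and 1 was higher and 1 lower in EtOH+MBV livers. Of 9 hepatocyte markers, 2 were higher and 0 lower in EtOH livers, and 4 were higher and 0 lower in EtOH+MBV livers. The part of cell composition in the results for the respiratory genes was not tested.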

How the data were processed

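Per the labels' protocols, polyadenylated RNA was isolated with poly-T beads and sequenced on Illumina instruments. Per the submitters' processing notes, Trimmomatic, STAR and build mm10 were used; the notes name no version, setting or gene annotation. The authors deposited read counts per gene, not normalized, and the unstranded counts were used, since 1 stranded column held 50.58% to 51.79% of stranded counts. The 4 categories that are not genes were left out of library sizes: reads without a feature were 9.397% to 10.87% of a library, ambiguous reads 1.348% to 1.693%. Near-identical copies of these genes, such as processed pseudogenes, can take or lose reads.

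Counts were filtered with filterByExpr (minimum count 10), scaled by TMM and fitted with edgeR 4.0.16 (R 4.3.3) over all 16 libraries by group, without covariates; standard errors were derived from the F statistic. The pipeline was tested on simulated data. Alternatives used DESeq2 1.42.0, limma 3.58.1 (voom), other scalings, no filter, 2 groups only, a replicate block and left-out libraries; 2 alternatives were added after seeing the data. Replicate counts differed beyond sampling noise in every pair. Gene coordinates and exon lengths come from GENCODE M21 (GRCm38); 83 of 84 symbols matched, 1 under another symbol.

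The genes, lists and tests were chosen with earlier results of these data known. Named genes follow a rule: the 2 with the smallest p per complex in EtOH against PF, the 3 with the smallest p in each other comparison, the extremes of fold change, and isoforms; roles were assigned after the values were seen, and Sdhc, Cox4i1 and the share comparisons fall outside the rule. 1 complex I gene is counted but not reported here by name.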

Additional observations from a re-analysis of the deposited data

Results flagged for a closer look

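Among 108 groups of 4 libraries examined, 4 had a library far from the other 3; chance flags about 1 in 20 such groups. Sdha was 556.6 CPM in EtOH+MBV 1, against 475.1 to 484.9 CPM in the other EtOH+MBV libraries. Atp5j was 122.2 CPM in EtOH+MBV 1, against 102.6 to 105.8 CPM in the others. Ndufb3 was 37.93 CPM in PF+MBV 4, against 33.1 to 33.68 CPM in the other PF+MBV libraries. Atp5g1 was 110.7 CPM in PF+MBV 1, against 120.6 to 122.3 CPM in the others.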

How the results depend on the processing

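In EtOH against PF the count of 31 genes called lower was 31 with DESeq2's size factors, 36 with plain totals, 22 without the filter, 32 with DESeq2, 31 with voom, 45 with upper quartile scaling, 8 with the 2 groups only, and 15 without EtOH 1 and EtOH+MBV 1. Leaving out 1 library gave 14 to 53. In all 8 such fits the same 12 genes were lower, and in all 17 alternatives 7 were: Ndufb2, Ndufb3, Sdha, Uqcrfs1, Cox6b1, Atp5j and Atp5sl. The sign of Atp5g2, near zero, turned in 4 of these fits (-0.034 without EtOH 2, -0.015 without EtOH 3, -0.006 without PF 1, -0.044 without PF 4; range -0.044 to 0.075) and with upper quartile scaling (-0.042). Calls of Sdhd, Uqcrh, Cox7b and Atp5g3 were lost with the 2 groups only; the causes were not tested.

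In EtOH+MBV against PF+MBV the count of 11 became 46 with plain totals, 26 with upper quartile scaling, 7 without the filter, 24 with the 2 groups only and 31 without EtOH 1 and EtOH+MBV 1, and 6 to 18 without 1 library. Plain totals shifted the median of all genes by -0.148 here, -0.112 in EtOH+MBV against EtOH and -0.178 in the interaction, and moved the calls over all genes here from 2478 higher and 2155 lower to 1446 and 2686. The 0 calls in both MBV comparisons and the interaction became 1 in PF+MBV against PF with the 2 groups only, and 0 in the other fits.

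Over all genes, the 347 calls of EtOH+MBV against EtOH became 196 with plain totals, 905 with DESeq2, 0 with the 2 groups only, 180 without EtOH 1 and EtOH+MBV 1, and 8 to 1169 without 1 library. The 230 of PF+MBV against PF became 665 with DESeq2, 1119 with the 2 groups only and 45 to 689 without 1 library. The 530 of the interaction became 349 with plain totals, 1113 with DESeq2, 887 without EtOH 1 and EtOH+MBV 1, and 168 to 1088 without 1 library.

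Replicate numbers did not pair the samples: 3 of 24 correlations of same-numbered deviations exceeded 0.1 (-0.124 to 0.17). With the replicate block 23 genes were called in EtOH against PF, 8 in EtOH+MBV against PF+MBV, and 205 of all genes in EtOH+MBV against EtOH. Very low genes such as Cox7a1 are limited by counting error.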
